A study of Mus musculus with 8 samples.

Results

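Entry into mitosis is set by Cdk1 bound to its cyclins, after which the Aurora, Polo and NIMA-related kinases, the kinesin motors, the kinetochore checkpoint and the condensin complex build the spindle, compact the chromosomes and part them. The mRNAs of most of these proteins peak together late in the cell cycle, under a repressor and activator system (DREAM, B-Myb and FoxM1) that reads a short promoter element called CHR, often beside CCAAT boxes bound by NF-Y. Mouse embryonic stem cells divide fast and carry high levels of these mRNAs. The genes described here are 40 such genes of a total of 24421 in the count tables, chosen by name for their roles. No measured value entered the rule, but earlier results of these data were known when it was set. All 40 passed the filter on low counts in each comparison.

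PolyA RNA of mouse embryonic stem cells was sequenced after 3 to 4 passages in 2i/LIF, in which such cells stay naive and pluripotent. Ubc9-depleted cells were v6.5 cells given doxycycline for 72 hours to remove Ubc9, the E2 enzyme that conjugates SUMO to proteins. They were set against Ubc9 control cells of the same line, for which the labels do not say whether doxycycline was given. H1 TKO cells have lost 3 linker histone genes (Hist1h1c, Hist1h1d and Hist1h1e) and were compared with H1 control cells, both lines being those of an earlier publication. Each of the 4 groups had 2 libraries, and the labels do not say whether these came from separate cultures or clones, nor how doxycycline acts on Ubc9. Every p-value therefore measures only the spread between libraries, which may be technical. The comparisons used different library kits and lines, so that kit and line cannot be told apart from any difference between them.

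The libraries held 75972231 to 88410194 counts in Ubc9-depleted cells and 99269669 to 102780141 in Ubc9 controls, and 44441713 to 68445181 in H1 TKO cells and 52960206 to 56032400 in H1 controls. The 3 deleted H1 genes had 0 counts in each H1 TKO library and 100 to 231 counts in each H1 control library. All 10 embryonic stem cell markers checked were above 0 in every library. Some libraries stood apart. Ubc9-depleted library 1 detected 23462 genes and library 2 19591, against 18872 and 18584 in the Ubc9 controls. H1 control libraries 1 and 2 differed strongly across genes, those described here included, as given below.

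The promoters of the genes that led the fall after Ubc9 depletion are shown first, because the shared elements in them are the best known common feature of this gene class. RefSeq promoter windows of 300 bases (250 before to 50 after the transcription start, build GRCm38.p6) were matched for 34 of the 40 genes, in 36 windows, the others being Ccna2, Cdc25c, Aurkb, Kif20a, Tpx2 and Smc4. Those of the 4 genes with the lowest p after Ubc9 depletion and of Aurka, added after its values were seen because it alone passed the test of the difference between the comparisons, are printed 5′ to 3′ on the gene's strand. Capitals mark CHR letters (TTTGAA or TTCGAA) and CCAAT letters, searched on both strands, so that a reverse match reads TTCAAA or ATTGG.
Top2a (chr11:99024140-99024439, minus strand): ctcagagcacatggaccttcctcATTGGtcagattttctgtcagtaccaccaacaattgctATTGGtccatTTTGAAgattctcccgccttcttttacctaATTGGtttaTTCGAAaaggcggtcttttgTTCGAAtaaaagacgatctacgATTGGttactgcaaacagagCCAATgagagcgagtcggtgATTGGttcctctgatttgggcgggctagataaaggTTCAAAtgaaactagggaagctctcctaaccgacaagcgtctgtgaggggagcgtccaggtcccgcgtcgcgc
Kif11 (chr19:37376132-37376431, plus strand): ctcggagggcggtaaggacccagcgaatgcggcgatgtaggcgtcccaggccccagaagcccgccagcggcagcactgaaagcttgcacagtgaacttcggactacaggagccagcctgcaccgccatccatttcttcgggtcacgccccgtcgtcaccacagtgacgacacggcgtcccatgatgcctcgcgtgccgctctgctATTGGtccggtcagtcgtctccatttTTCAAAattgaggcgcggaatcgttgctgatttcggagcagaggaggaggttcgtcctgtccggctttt
Nusap1 (chr2:119618048-119618347, plus strand): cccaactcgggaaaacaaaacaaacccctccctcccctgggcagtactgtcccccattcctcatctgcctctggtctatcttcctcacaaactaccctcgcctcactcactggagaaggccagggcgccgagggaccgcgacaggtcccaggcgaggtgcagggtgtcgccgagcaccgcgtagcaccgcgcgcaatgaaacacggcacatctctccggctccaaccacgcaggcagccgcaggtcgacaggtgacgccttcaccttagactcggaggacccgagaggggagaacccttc
Nek2 (chr1:191821223-191821522, plus strand): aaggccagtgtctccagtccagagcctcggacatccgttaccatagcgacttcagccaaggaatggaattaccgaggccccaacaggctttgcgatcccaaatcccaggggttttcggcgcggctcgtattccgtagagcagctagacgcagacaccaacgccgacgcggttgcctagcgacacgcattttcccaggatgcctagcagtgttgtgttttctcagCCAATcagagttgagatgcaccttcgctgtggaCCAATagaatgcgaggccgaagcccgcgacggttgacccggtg
Aurka (chr2:172370521-172370820, minus strand): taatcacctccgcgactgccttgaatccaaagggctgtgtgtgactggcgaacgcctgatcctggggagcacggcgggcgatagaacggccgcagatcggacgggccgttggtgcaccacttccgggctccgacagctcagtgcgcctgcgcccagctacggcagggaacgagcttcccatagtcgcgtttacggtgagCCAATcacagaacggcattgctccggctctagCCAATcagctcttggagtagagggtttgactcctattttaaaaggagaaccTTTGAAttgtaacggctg

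CHR letters were present in 29 of the 36 windows (80.6%), against 19.2% of 32851 windows over all genes. CCAAT letters were in 28 of 36 (77.8%), against 37.4%, and both kinds together in 25 of 36 (69.4%), against 7.52%. The Top2a window held 4 CHR and 6 CCAAT matches, that of Kif11 1 of each, that of Nek2 2 CCAAT matches, and that of Nusap1 no match. Among the genes called lower after Ubc9 depletion CHR letters were in 18 of 23 windows (78.3%), and among the others in 11 of 13 (84.6%). CCAAT letters were in 16 of 23 (69.6%) and 12 of 13 (92.3%). A match is only a run of letters in this window.

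The first comparison asks how these genes stand after Ubc9 depletion. All 40 genes had a negative log2 fold change in Ubc9-depleted cells against Ubc9 control cells, and 24 of them fell and 0 rose at a Benjamini-Hochberg adjusted p below 0.05 (edgeR quasi-likelihood, 16499 genes). Over all genes tested 15% were called lower and 21.1% higher, but these genes are highly expressed. Among the 6996 genes within their range of mean level (18.6 to 1331 CPM, counts relative to the TMM-scaled library total), 27.2% were called lower and 7.65% higher. The median log2 fold change was -0.33 for the 40 genes, -0.16 for genes of that range and 0.06 for all genes. The 40 genes lay high in that range, with a median log2 CPM of 7.44 against 5.95. Level was thus not matched, and its part in the gap was not tested. In 39 of the 40 both Ubc9-depleted libraries lay below both controls, which held for 54.9% of the genes in the range and 32.2% of all genes. The exception was Smc4.

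**Figure D1:**
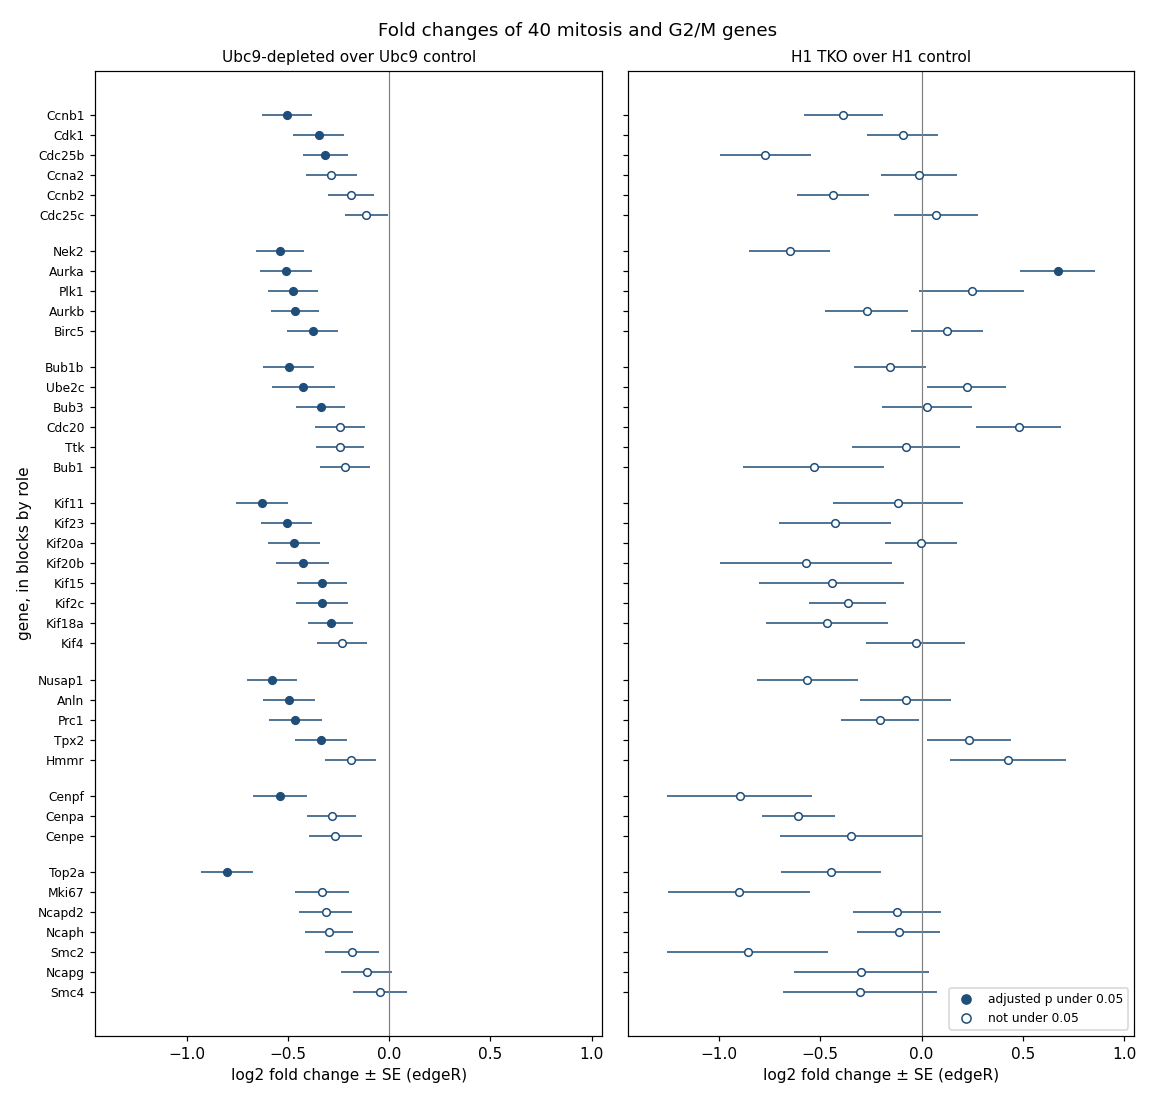
Log2 fold changes of the 40 genes (edgeR, ± SE) in Ubc9-depleted over Ubc9 control cells on the left and in H1 TKO over H1 control cells on the right, in blocks by role from cyclins at the top to condensin at the bottom; filled points have an adjusted p under 0.05. On the left 24 points are filled and every point lies below 0; on the right only Aurka is filled, at 0.67.

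The fall was of modest size, between 0.29 and 0.80 on the log2 scale among the 24 called genes. Summed over the 40 genes, Ubc9-depleted libraries 1 and 2 held 9029 and 9966 CPM, against 12550 and 12506 CPM in the Ubc9 controls. Without TMM scaling these were 1.02% and 1.00% of all counts, against 1.19% and 1.16%. Library 1 was below library 2 in 37 of the 40 genes. In bulk RNA, fewer cells in G2 and mitosis and less of these mRNAs per cell cannot be told apart. Summed markers of 2-cell-like cells were 543 and 572 CPM in Ubc9-depleted libraries and 29.7 and 28.0 CPM in controls, and summed fibroblast markers (all 11 above 0) 49.2 and 41.8 against 20.9 and 20.0 CPM. Their part in the result was not tested.

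The count of 24 depended on which library was left out and on the scaling. It was 20 without Ubc9-depleted library 1 (15.3% of all genes lower), 38 when Ubc9-depleted library 2 was dropped (22.9%), and 0 when either Ubc9 control library was (4.45% and 3.93%), fits in which the spread comes from the Ubc9-depleted pair alone. The median stayed between -0.52 and -0.26 in these 4 fits. With scaling by library totals 15 genes fell (6.57% of all genes), and 34 of the 40 had a negative log2 fold change. The median of the 40 was then -0.15 and that of all genes 0.25, a gap close to that with TMM scaling. Of all calls with library totals 78.6% were higher, against 58.5% with TMM. With offsets for GC content 20 fell (20.5% of all genes) and 40.6% of all calls were higher. RLE factors and no filter gave 21 each (15% and 10% of all genes), DESeq2 30 (15.8%) and the replicate block 29 (16%). The fit of all 8 libraries, which adds the spread of the H1 libraries, called 1 (2.85% of all genes), so fewer of all genes passed there too. In all 7 fits of the 4 libraries that varied the scaling, filter, tool, block or GC offsets, 15 genes were called lower: Anln, Aurka, Aurkb, Bub1b, Ccnb1, Cenpf, Kif11, Kif20a, Kif20b, Kif23, Nek2, Nusap1, Plk1, Prc1 and Top2a. The share of all genes lower in all 7 is not given here. The fit by library totals, which called the fewest lower, had 6.57%.

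The counts by role are to be read against 15% lower over all genes and 27.2% lower in the range of level. Of the 6 genes of the mitotic engine, Ccnb1, Cdk1 and Cdc25b fell. Ccnb1, the B-type cyclin that drives entry into mitosis, had 138 and 150 CPM in Ubc9-depleted libraries, against 207 and 202 CPM in controls, with a log2 fold change of -0.50 ± 0.12 (± SE, adjusted p = 0.00216, edgeR). Cdk1, the kinase it activates, had 141 and 166 CPM against 194 and 196 CPM in controls, a log2 fold change of -0.35 ± 0.13. Its adjusted p of 0.0317 became 0.113 with scaling by library totals, 0.0559 with GC offsets and 0.0880 without Ubc9-depleted library 1 (edgeR). The groups of both genes did not overlap, and the depleted level of Ccnb1 was 70.6% and that of Cdk1 78.6% of control. Cdc25b, a phosphatase that activates Cdk1, had a log2 fold change of -0.31, and was not called by DESeq2. Ccna2 and Ccnb2, cyclins of the same phase, and Cdc25c, a related phosphatase, were not called by edgeR with all 4 libraries and no block, with log2 fold changes of -0.29, -0.19 and -0.11. DESeq2 called Ccna2 lower (adjusted p = 0.0208).

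All 5 genes grouped here as mitotic kinases and passenger genes fell, by 0.38 to 0.54 on the log2 scale. The kinases Bub1 and Ttk, grouped with the checkpoint below, were not called by edgeR with all 4 libraries. Nek2, a kinase that splits the centrosomes, had 86.7 and 93.1 CPM in Ubc9-depleted libraries and 133 and 128 CPM in controls, with a log2 fold change of -0.54 ± 0.12 (adjusted p = 8.0e-04, edgeR). Aurka, the Aurora kinase of the spindle poles, had 128 and 154 CPM against 200 and 201 CPM in controls, with a log2 fold change of -0.51 ± 0.13 (adjusted p = 0.0025, edgeR). In both genes every depleted library was below every control. Plk1, the Polo kinase, Aurkb, the Aurora kinase of the chromosomal passenger complex, and Birc5 (survivin), its partner, had log2 fold changes of -0.48, -0.46 and -0.38.

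Of the 6 checkpoint and anaphase genes, Bub1b, Ube2c and Bub3 fell. Bub1b encodes BubR1, which holds back anaphase, and had 220 and 224 CPM in Ubc9-depleted libraries and 306 and 321 CPM in controls, a log2 fold change of -0.50 ± 0.13 (adjusted p = 0.0028, edgeR). The depleted pair lay close together and well below the controls. Ube2c, the E2 enzyme of the anaphase-promoting complex, was uneven, with 242 CPM in Ubc9-depleted library 1 and 150 CPM in library 2, against 267 and 260 CPM in controls. Its log2 fold change of -0.42 ± 0.15 (adjusted p = 0.0326, edgeR) was -0.20 with adjusted p = 0.112 without Ubc9-depleted library 2. With library 2 alone kept it was -0.82. Bub3, the partner of the Bub kinases, had a log2 fold change of -0.34. The kinases Bub1 and Ttk and the activator Cdc20 were not called by edgeR with all 4 libraries, with log2 fold changes of -0.22, -0.24 and -0.24, although DESeq2 called Ttk lower (adjusted p = 0.0329).

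Of the 8 genes grouped here as kinesins 7 were called, where 15% of all genes and 27.2% in the range of level were lower. The motor Cenpe, grouped with the centromere genes below, was not called by edgeR, with a log2 fold change of -0.27. Kif11, the motor that pushes the spindle poles apart, had 298 and 328 CPM in Ubc9-depleted libraries, against 468 and 498 CPM in controls, a level of 64.7% of control and a log2 fold change of -0.63 ± 0.13 (adjusted p = 3.8e-04, edgeR). Kif23, a motor of the central spindle that is needed to divide the cell, had 156 and 175 CPM against 237 and 233 CPM in controls, a log2 fold change of -0.51 ± 0.13 (adjusted p = 0.0024, edgeR). The groups were well apart in both. The other called kinesins, Kif20a, Kif20b, Kif15, Kif2c and Kif18a, had log2 fold changes between -0.47 and -0.29. Kif4, a chromosome-bound motor, was not called, at -0.23.

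Among the 5 genes of spindle assembly and cytokinesis only Hmmr, a spindle pole protein, was not called (-0.19). Nusap1, which bundles spindle microtubules, had 143 and 145 CPM in Ubc9-depleted libraries and 214 and 215 CPM in controls, a log2 fold change of -0.58 ± 0.12 (adjusted p = 5.3e-04, edgeR). Anln, the anillin of the contractile ring, had 305 and 320 CPM against 431 and 450 CPM in controls, a log2 fold change of -0.50 ± 0.13 (adjusted p = 0.0033, edgeR). Both pairs of libraries were tight beside the gap between groups. Prc1, a cross-linker of the central spindle, and Tpx2, an activator of Aurora A, had log2 fold changes of -0.46 and -0.34.

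**Figure D2:**
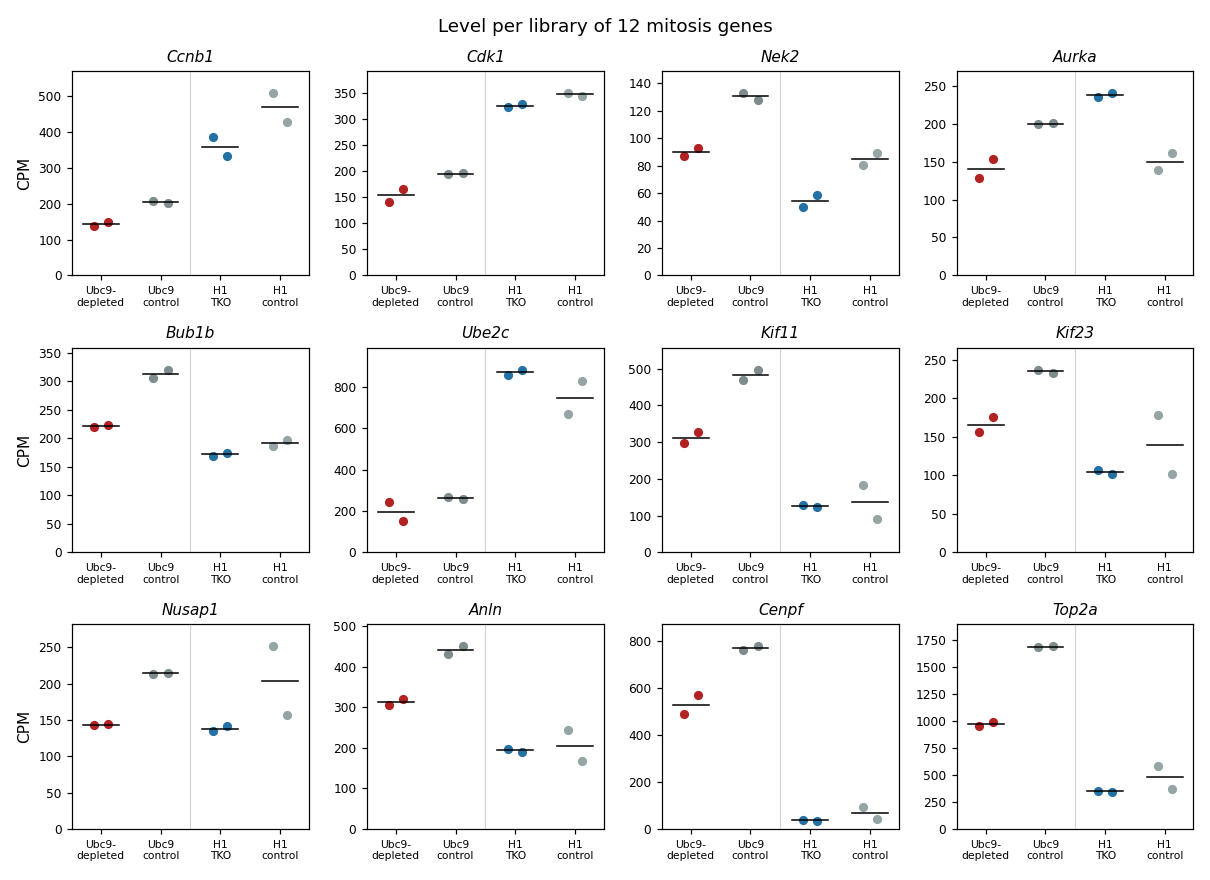
CPM in each library (points) and group means (lines) of 12 genes, the 1 or 2 with the largest fold change among those called in each role; Ubc9-depleted stands left of Ubc9 control and H1 TKO left of H1 control, and each vertical axis starts at 0. In every panel the Ubc9-depleted points lie below the Ubc9 control points, while H1 control libraries are often far apart, as for Kif11 with 184 and 90.7 CPM.

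In the centromere group Cenpf fell, while Cenpa and Cenpe were not called by edgeR with all 4 libraries and no block but were called lower by DESeq2. The edgeR share of 33.3%, 1 of 3 genes, was near the 27.2% in the range of level. Cenpf, a large kinetochore protein of G2 and M cells, had 489 and 573 CPM in Ubc9-depleted libraries and 762 and 779 CPM in controls, with a log2 fold change of -0.54 ± 0.13 (adjusted p = 0.0022, edgeR) and no overlap between the groups. Cenpa, the histone H3 variant that marks centromeres, and Cenpe, a kinetochore motor, had log2 fold changes of -0.28 and -0.27.

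The chromosome structure group held the largest and the smallest change of the 40 genes. With all 4 libraries and no block edgeR called 1 of its 7 genes, Top2a. That share of 14.3% was below the 27.2% in the range of level. Top2a, the topoisomerase that untangles sister chromatids, had 952 and 990 CPM in Ubc9-depleted libraries, against 1686 and 1694 CPM in controls, a level of 57.5% of control and a log2 fold change of -0.80 ± 0.13 (adjusted p = 1.7e-05, edgeR). Smc4, a core subunit of condensin, had 802 and 937 CPM against 900 and 895 CPM in controls, with a log2 fold change of -0.05 ± 0.13. The depleted values of Smc4 lay on either side of the controls. None of the 5 condensin genes was called by edgeR with all 4 libraries and no block, with 2 at an unadjusted p under 0.05 and log2 fold changes of -0.31 for Ncapd2, -0.30 for Ncaph, -0.18 for Smc2 and -0.11 for Ncapg, although DESeq2 and the replicate block called Ncapd2 and Ncaph lower. Without Ubc9-depleted library 2, Ncapg, Smc2 and Smc4 were called lower as well. In that fit, which rests on Ubc9-depleted library 1 alone, only Ube2c and Cdc25c of the 40 genes were not called. Mki67, which coats mitotic chromosomes, was at the threshold, with a log2 fold change of -0.33 (adjusted p = 0.0503, edgeR), and was called lower by DESeq2.

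Other genes of mitosis, from lists drawn up by role, were lower in part, to be read against the 15% lower and 21.1% higher over all genes and the 27.2% lower in the range of level. Of 30 further checkpoint and kinetochore genes 12 fell and 1 rose after Ubc9 depletion, with a median log2 fold change of -0.26. Cenpi, Cenpm and Casc5, which encode kinetochore subunits, had log2 fold changes of -0.60, -0.75 and -0.52, and Cenpk, the 1 that rose and so named after its value was seen, 0.41. Of 17 genes of the anaphase-promoting complex 5 fell and 0 rose, with a median of -0.18, a share of 29.4%, near that in the range. These included the subunits Anapc10 and Anapc2 at -0.60 and -0.45 and the inhibitor Fbxo5 (Emi1) at -0.55. Of 15 cohesin and separase genes 7 fell and 0 rose, with a median of -0.31. Esco2, which acetylates cohesin, Cdca5 (sororin), which guards it, and Wapal, which releases it, had log2 fold changes of -0.71, -0.63 and -0.58. Of the 3 genes of condensin II, Ncapg2 fell, with a log2 fold change of -0.41.

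Of 19 transcription regulators of mitotic genes 6 fell and 2 rose after Ubc9 depletion, with a median log2 fold change of -0.23, where 15% of all genes were lower and 21.1% higher and 27.2% were lower in the range of level. E2f3, E2f1 and E2f2, factors that switch on S-phase and mitotic genes, had log2 fold changes of -0.61, -0.48 and -0.58. Foxm1 and Mybl2, named after their values were seen as the main activators of CHR promoters, had log2 fold changes of -0.33 ± 0.11 (adjusted p = 0.0246, edgeR) and -0.16 ± 0.13 (adjusted p = 0.36, edgeR). Of 10 brakes on entry to mitosis 4 fell and 2 rose. Gadd45a, a stress-induced inhibitor of Cdk1, had 34.1 and 28.7 CPM in Ubc9-depleted libraries and 15.2 and 15.8 CPM in controls, a log2 fold change of 1.02 ± 0.11 (adjusted p = 2.6e-08, edgeR). Wee1, the kinase that blocks Cdk1, and Chek2, a checkpoint kinase, had log2 fold changes of -0.64 and -0.62. Without either Ubc9 control library, Cenpi, Cenpm, Esco2, Cdca5, E2f3, E2f1, Gadd45a, Wee1 and Chek2 still passed, whereas Casc5, Anapc10, Anapc2, Fbxo5, Wapal, Ncapg2 and E2f2 did not pass without at least 1 of them.

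The second comparison asks how the same genes stand without 3 linker histones. In H1 TKO cells against H1 control cells 1 of the 40 genes rose and 0 fell (edgeR, 14800 genes tested), against 8.59% higher and 8.43% lower over all genes and 5.93% and 6.63% among 5127 genes within the range of their level. At an unadjusted p under 0.05 6 were lower (15%) and 1 was higher (2.5%), against 16.4% and 15.9% of all genes, and DESeq2 called 5 lower and 1 higher. The median log2 fold change was -0.24, against -0.02 for all genes, and 31 of 40 were negative. Level was not matched here either, with a median log2 CPM of 7.04 for the 40 genes and 6.28 in the range. In 14 genes both H1 TKO libraries lay below both controls and in 6 above them, against 29.4% and 29.1% of genes in the range and 30.6% and 31.4% of all genes.

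With all 4 H1 libraries kept, other settings called up to 11 of the 40 genes lower. They called 3 with library totals (9.56% lower and 7.66% higher over all genes), 5 in DESeq2 (11.7% and 11.5%), 6 without the filter (10.1% and 8.71%) and 3 with all 8 libraries (12.7% and 13%). The replicate block gave 4 (11.7% and 11.7%) and GC offsets 11 lower and 3 higher (19.8% and 15%). A fit without an H1 TKO library takes its spread from the H1 control pair alone. Without H1 TKO library 1 or 2 none was called (3.45% and 4.12%, and 3.19% and 4.03%).

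Aurka was the gene called. It had 236 and 241 CPM in H1 TKO libraries, against 138 and 161 CPM in H1 controls, with a log2 fold change of 0.67 ± 0.19 (adjusted p = 0.0482, edgeR). The groups did not overlap, and the value stayed between 0.57 and 0.78 in the 11 alternatives, but the adjusted p was 0.0555 with scaling by library totals (edgeR). Without H1 TKO library 1 or 2 the call was lost, at log2 fold changes of 0.67 and 0.65. In those fits the spread comes from the H1 control pair alone. Summed stem cell markers were 11721 and 11607 CPM in H1 TKO libraries and 6391 and 6966 CPM in controls, of which Tfcp2l1, the 1 of the 10 called, held 5416 and 4914 against 1778 and 1611 CPM. Zfp42 and Klf4 had log2 fold changes of -0.53 and -0.25. The summed 2-cell markers were 90.1 and 93.3 against 7.65 and 4.79 CPM. Of the 11 fibroblast markers 7 and 8 were above 0 in the H1 TKO libraries and 5 and 6 in the controls, with summed levels of 17.0 and 16.2 against 15.1 and 23.4 CPM, and Postn and Prrx1 were at 0 in every H1 library. Their part in the result was not tested.

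The H1 control libraries differed from each other in many of the 40 genes. Library 1 was above library 2 in 25 of them. The log2 ratio of the 2 libraries had an SD of 0.61 over the 40 genes, against 0.15 in H1 TKO, 0.16 in Ubc9-depleted and 0.077 in Ubc9 control cells. Over all genes in the range of level the SD was 0.51 in H1 control and 0.14 in H1 TKO cells. It was 0.15 in Ubc9-depleted and 0.14 in Ubc9 control cells, so the split was not particular to the 40 genes. Kif20b, a motor of late cytokinesis, had 27.8 and 25.1 CPM in H1 TKO libraries and 57.4 and 21.0 CPM in H1 controls. Smc2, the partner of Smc4, had 75.0 and 61.7 CPM against 177 and 70.5 CPM, and Plk1 140 and 145 CPM against 90.7 and 149 CPM in H1 controls. Control library 1 was thus the higher for Kif20b and Smc2 and the lower for Plk1.

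The ratio of the H1 control libraries followed the base composition of the genes. Over the 40 genes its Spearman correlation was -0.86 with GC content and 0.60 with exonic length, a description over genes that share the same libraries. Over the 5127 genes in the range it was -0.79 with GC content. The same correlation with GC over the 40 genes was -0.55 between H1 TKO, -0.29 between Ubc9-depleted and 0.26 between Ubc9 control libraries. Over the genes in the range of level it was -0.17, -0.14 and 0.48 in these 3 groups. GC-poor genes such as Ncapg, Kif18a and Kif20b (34.8%, 38.2% and 39.4% GC) were higher in control library 1, and GC-rich genes such as Plk1 and Cdc20 (56.0% and 55.6%) in control library 2.

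**Figure D3:**
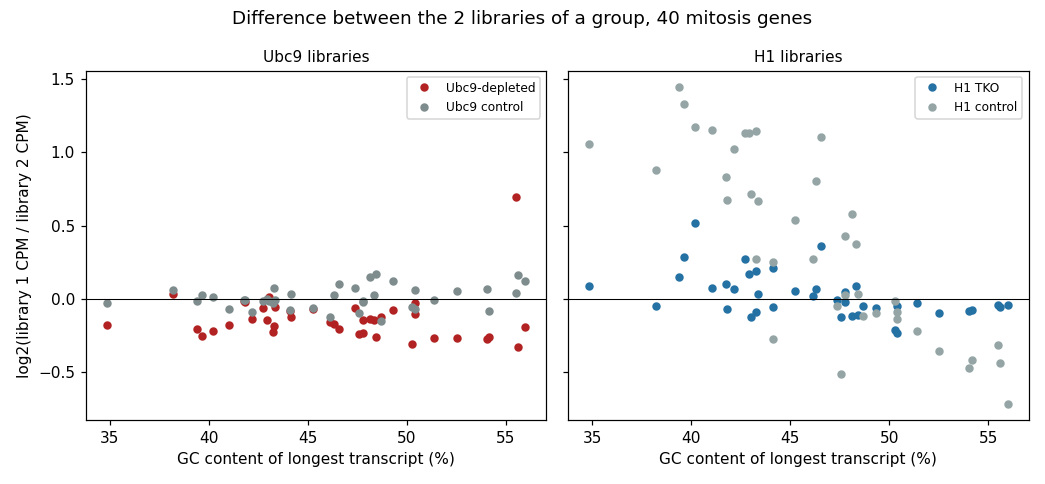
Log2 ratio of library 1 to library 2 within each group (vertical axis) against the GC content of the longest transcript in percent (horizontal axis) for the 40 genes, with the Ubc9 groups on the left and the H1 groups on the right. Ratios are drawn without an added constant. The H1 control points slope down over a range of -0.72 to 1.45; the other groups span a narrower range, from -0.33 (Cdc20) to 0.69 (Ube2c) in Ubc9-depleted and -0.23 (Nek2) to 0.51 (Smc4) in H1 TKO cells.

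Counts in the H1 comparison turned on the control library used. The part of base composition in this was not tested. Against control library 2 alone (without H1 control library 1) 8 genes were lower and 11 higher, where 22.8% and 23.4% of all genes were. Against control library 1 alone 25 were lower and 5 higher, where 26.1% and 25.8% of all genes were, and the median was 0.02 in the first case and -0.38 in the second. In these fits the lone control is assumed to vary like the H1 TKO pair. Cenpe, Kif11, Kif20b, Kif4, Ncapg, Smc4 and Ttk, 7 in all, were called higher against library 2 and lower against library 1.

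Another 8 genes were called in the same direction against each control library, 6 lower and 2 higher. The 6 were Ccnb1, Ccnb2, Cdc25b, Cenpa, Kif2c and Nek2. Cdc25b had 23.9 and 25.2 CPM in H1 TKO libraries and 35.8 and 48.0 CPM in H1 controls, a log2 fold change of -0.77 ± 0.23 (adjusted p = 0.0578, edgeR). Cenpa had 175 and 181 CPM against 261 and 283 CPM in H1 controls, and Nek2 49.7 and 58.3 CPM against 80.7 and 88.9 CPM. Cenpa and Nek2 had log2 fold changes of -0.61 and -0.65, with adjusted p = 0.0578 and 0.0666 (edgeR). The 2 higher genes were Aurka and Cdc20. Cdc20, which switches on the anaphase-promoting complex, had 236 and 246 CPM in H1 TKO libraries and 147 and 199 CPM in H1 controls, with a log2 fold change of 0.48 ± 0.21 (adjusted p = 0.166, edgeR). These genes were picked from fits that share the H1 TKO libraries and are a description. The share of all genes called in the same direction, or in opposite directions, against the control libraries is not given here. Neither count can therefore be set against a background.

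**Figure D4:**
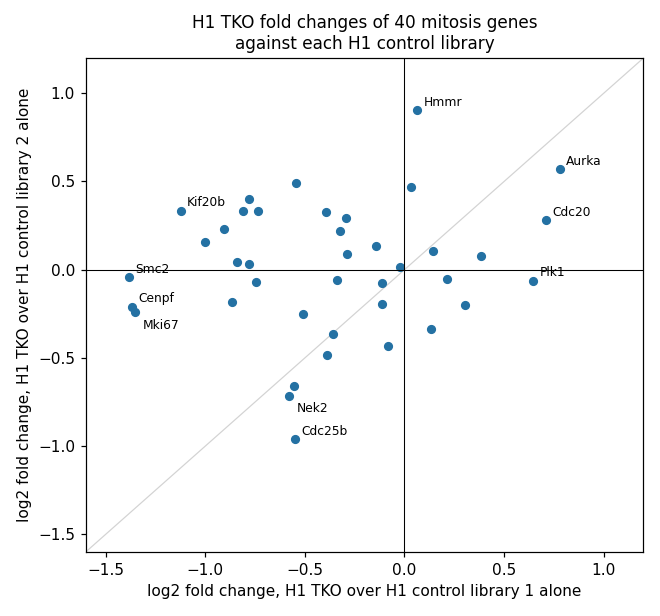
Log2 fold change of each of the 40 genes in H1 TKO cells against H1 control library 1 alone (horizontal axis) and against H1 control library 2 alone (vertical axis), with the line of equality in grey. Cdc25b, Nek2, Aurka and Cdc20 keep their sign on both axes, while Kif20b is at -1.12 on the horizontal and 0.33 on the vertical axis.

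By role, the median log2 fold change in H1 TKO cells was -0.61 for the centromere genes, -0.40 for the kinesins, -0.31 for condensin and chromosome structure and -0.24 for the cyclin group. It was -0.08 for spindle assembly, -0.03 for checkpoint and anaphase genes and 0.12 for the kinases. These medians turned on the H1 control library. Without control library 1 the kinesins were at 0.14, spindle assembly at 0.22, checkpoint and anaphase genes at 0.12, the kinases at -0.06 and the centromere genes at -0.21. Without control library 2 the kinesins were at -0.66, the condensin group at -0.75 and checkpoint and anaphase genes at 0.09. Cenpf and Mki67, with log2 fold changes of -0.90 and -0.90, had the most negative values, but their controls were split, with 94.1 and 42.4 CPM for Cenpf and 392 and 182 CPM for Mki67, against 39.0 and 34.2 CPM and 173 and 135 CPM in H1 TKO libraries. In other mitosis lists, 1 of 15 cohesin and separase genes was called in H1 TKO cells, Wapal, with a log2 fold change of -1.22. Of 19 transcription regulators 1 was called, Lin37, a DREAM subunit, at 1.14, and of 10 brakes 4. These are 6.67%, 5.26% and 40% of their lists, against 17% of all genes called in either direction. Of the brakes Btg2, an antiproliferative factor, rose (1.13 ± 0.20) and Gadd45a, Gadd45b and Ccng2 fell (log2 fold changes of -1.63, -1.23 and -1.50). Wapal, Lin37 and Ccng2 lost the call without H1 TKO library 1 or library 2. Btg2 and Gadd45b lost it likewise, and Gadd45a only when H1 TKO library 2 was left out. In these fits the spread comes from the H1 control pair alone. Wapal and Ccng2 were at -0.59 and -0.82 without H1 control library 1. None of the 30 checkpoint and kinetochore genes, of the 17 genes of the anaphase-promoting complex or of the 3 condensin II genes was called (edgeR), with 3, 4 and 0 at an unadjusted p under 0.05, a threshold that 32.2% of all genes passed.

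The difference between the effects was tested in 1 fit of all 8 libraries. Of the 40 genes 1 was called, against 14.5% of the 16974 genes tested and 13.4% of 6182 in the range of level. Aurka (chromosome 2, 172356190 to 172370535, minus strand, GRCm38) fell in Ubc9-depleted cells and rose in H1 TKO cells, with a difference of -1.20 ± 0.23 on the log2 scale (Ubc9 effect minus H1 effect, adjusted p = 0.0069, edgeR). It stayed past the threshold in the 14 alternatives, with values between -1.44 and -0.92 and adjusted p between 1.4e-07 and 0.0377 (edgeR and DESeq2). Cdc20 followed, with a difference of -0.74 ± 0.27 (adjusted p = 0.0933, edgeR), and the other 38 had adjusted p between 0.124 and 0.983. The count of called genes among the 40 was 6 in DESeq2 (19.8% of all genes), 5 with GC offsets (22.3%), 15 without H1 control library 1 (26.4%) and 14 without H1 control library 2 (30.3%).

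Levels per kilobase of exon, in CPM, gave a different order in each comparison. Top2a (108 ± 3.0, SD of 2 libraries) and Smc4 (167 ± 18) led in Ubc9-depleted cells as they did in Ubc9 controls, with 188 ± 0.59 for Top2a and 172 ± 0.72 for Smc4. Ube2c (335 ± 6.6) and Ccnb2 (159 ± 4.8) led in H1 TKO cells as in H1 controls, with 288 ± 44 for Ube2c and 215 ± 10 for Ccnb2. The lowest levels were those of Cdc25b and Cdc25c in Ubc9-depleted cells (4.43 ± 0.56 and 4.91 ± 0.21) and in Ubc9 controls (5.51 ± 0.22 and 5.30 ± 0.20), and of Cenpf in H1 TKO cells (2.37 ± 0.22) and H1 controls (4.42 ± 2.4). Within each Ubc9 group the levels of the 2 phosphatases did not differ from each other beyond their spread. Between these groups Cdc25b was called lower, as given above. The genes lie on 14 chromosomes, with 9 on chromosome 2. Some share exonic bases with a gene on the other strand, among them Kif20a with Cdc23 (1271 bases), Prc1 with Rccd1 (911) and Ube2c with Tnnc2 (592), and whether counting used strand is not given in the sources used here.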

How the data were processed

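The deposited values are whole-number counts per gene symbol for 4 libraries in each of 2 tables. Per the submitters' processing notes the authors used cutadapt, STAR, HTSeq and DESeq2 on mm10; versions, annotation and strand setting: not given in the sources used here. ScriptSeq v2 was used for the Ubc9 and Lexogen SENSE V2 for the H1 libraries, per the labels' protocols. The Ubc9 and the H1 libraries were fitted apart in edgeR 4.0.16 (R 4.3.3; filterByExpr with minimum count 10 and total 15, TMM, quasi-likelihood F test, Benjamini-Hochberg at 0.05), and the difference of effects on all 8. SE is the log2 fold change over the square root of F. The fits were run on simulated data, in which the set changes were larger than those of these genes in either comparison. Recovery of changes as small as these was not tested. Alternatives were DESeq2 1.42.0, RLE factors, library totals, no filter, all 8 libraries, a replicate block, GC offsets (loess, span 0.5) and leaving out each library. Of 24421 symbols 23376 matched GENCODE M21 by name and 670 by an older name, for length and GC content. Log2 ratios within a pair of libraries have 0.5 CPM added. Promoters are from RefSeq (GRCm38.p6). Levels at 3 counts were 0.0292 to 0.0675 CPM, far below these genes. The genes and lists were chosen with earlier results of these data known. Values per library are printed for the 2 called genes per role with the largest fold changes, for genes called in the difference, and for genes said to be chosen otherwise; of other mitosis genes up to 3 called per list were named by lowest p. The level of the gene targeted in the Ubc9 comparison is not reported here.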

Additional observations from a re-analysis of the deposited data

Results flagged for a closer look

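Aurka was flagged because its change after Ubc9 depletion and its change in H1 TKO cells differed by the test of the difference itself, by -1.20 on the log2 scale (edgeR, adjusted p = 0.0069). Among the other mitosis genes, 9 of 94 listed and tested (9.57%) also passed that test (edgeR), against 14.5% of all genes. Their differences, Ubc9 effect minus H1 effect on the log2 scale, were 2.63 for Gadd45a, 1.60 for Ccng2, 1.31 for Gadd45b and 1.16 for Rbl2, a pocket protein, and -1.50 for Lin37, -0.96 for E2f1, -0.94 for Pttg1 (securin), -0.78 for Cdc23, an anaphase-promoting complex subunit, and -0.75 for Btg2. Gadd45a and Gadd45b passed in all 14 alternatives and Lin37 in 13, while Btg2, Cdc23, E2f1 and Pttg1 passed in 6, 5, 7 and 7. Gadd45a had 34.1 and 28.7 CPM in Ubc9-depleted and 15.2 and 15.8 CPM in Ubc9 control libraries, and 3.15 and 3.17 CPM in H1 TKO and 11.5 and 8.01 CPM in H1 control libraries. The comparisons used different kits and lines, which cannot be told apart from these differences. Groups of 2 libraries are too small for a test of outlying samples.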

How the results depend on the processing

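After Ubc9 depletion, genes of the 40 called lower, 24 in edgeR, numbered 21 with RLE factors and without the filter, 30 in DESeq2, 29 with the replicate block, 20 with GC offsets, 15 with library totals and 1 with all 8 libraries, where 1583 genes were called in all. The median was -0.15 with library totals and -0.71 with GC offsets, which moved the median of all genes to 0.25 and -0.34. Leaving out a library gave 0 to 38 lower genes, medians of -0.52 to -0.26 and 2025 to 13038 called genes. Rbl2, called higher after Ubc9 depletion, turned to -0.0736 with GC offsets. In H1 TKO cells lower genes, 0 in edgeR, numbered 3 with library totals, 5 in DESeq2, 6 without the filter, 3 with all 8 libraries, 4 with the replicate block and 11 with GC offsets, and higher genes 0 with library totals and 3 with GC offsets. Called genes in all were 4363 with all 8 libraries and 5121 with GC offsets, against 2518. Leaving out a library gave 0 to 25 lower and 0 to 11 higher genes, 1105 to 8032 called genes, and medians of -0.38 to 0.0244, positive without H1 control library 1. For the difference of effects 6 genes were called in DESeq2 and 5 with GC offsets, and 1 to 15 without a library. The cause of these shifts was not tested. Same-numbered libraries share only a number: with 2 pairs, the correlation of their deviations was -0.0032 in the Ubc9 and 0.16 in the H1 comparison. With 2 libraries a group the spread rests on few values, and the effect of depth was not tested.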
